A study of Mus musculus with 48 samples.

Results

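The IGHV8 family is a small set of immunoglobulin heavy chain variable (V) genes that lie among the distal V genes of the mouse heavy chain locus, far from the joining (J) genes. Its members were taken here as every heavy chain sequence whose called V gene has a name beginning IGHV8, in all 48 libraries. They made up 6 of the 148 V genes called, 166641 of 4834214 deposited sequences and 596602 of 14545027 deposited counts. Sequences that at least 3 mice shared in the same tissue were then left out to limit carry-over between libraries. After this filter they made up 121122 of 3182102 clonotypes, a clonotype being all sequences with the same V gene, J gene and HCDR3 amino acids. The libraries came from the lacrimal gland (LG) and the spleen of 24 C57BL/6 mice. In the NOD-FMT group (10 mice) animals received by daily gavage the fecal supernatant of 30 NOD.B10.H2b donors, a strain with autoimmune dry eye disease, all more than 20 weeks of age. In the PBS-T group (9 mice) PBS was gavaged on the same schedule, and in the NC group (5 mice) animals of the same cohort were left untreated. Gavaged mice had been given antibiotics in the drinking water beforehand, so NOD-FMT and PBS-T share that treatment. The mice that received the supernatant were 5 weeks of age, and the sex of the recipients is not given in the sources used here.

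Each B cell builds its heavy chain by joining 1 V, 1 D and 1 J segment, and the junction codes for HCDR3, the most variable loop of the antigen-binding site. Naive B cells carry IgM and IgD with unmutated V segments, and after activation a cell can switch to IgG or IgA and acquire V mutations. Distal V genes have to be brought to the J genes by contraction of the locus before they can be joined. The LG makes the tear fluid, and its plasma cells secrete mainly IgA.

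In the GRCm38 build with its GENCODE annotation, 16 Ighv8 genes are annotated on the minus strand of chr12 between positions 114332796 and 115858301, of which 7 are pseudogenes. The nearest lies 903 kb and the farthest 2428 kb from the J genes, and 95 other V genes lie between the outermost members. The genes called in the libraries are Ighv8-5 (chr12:115067560-115068002), Ighv8-6 (chr12:115165777-115166220), Ighv8-8 (chr12:115294062-115294504), Ighv8-9 (chr12:115468332-115468780), Ighv8-11 (chr12:115567149-115567591) and Ighv8-12 (chr12:115647945-115648387). Of the study's V gene primers, mnphf6 matched with 0 mismatches in 6 Ighv8 genes, namely Ighv8-5, Ighv8-6, Ighv8-8, Ighv8-9, Ighv8-12 and Ighv8-13. Ighv8-2 differed from it at 1 base, Ighv8-4 and Ighv8-11 at 2 bases. The primer is shown because these members carry its sequence. No sequence was called Ighv8-13.
mnphf6: caggttactctgaaagagtctggc
The 3′ ends of the germline V segments are shown next because they form the start of HCDR3. Capitals mark the codon at the place of the conserved cysteine, after which HCDR3 begins in all of these but Ighv8-2. Of the sequences nearest to Ighv8-2, 86.2% had an annotated HCDR3 starting with WR, at the tgg codon and not at the gct before it.
Ighv8-8: acatactacTGTgctcgaatag
Ighv8-12: acatactacTGTgctcgaagag
Ighv8-5: acatactacTGTgctcaaatag
Ighv8-6: acatactacTGTgctcga
Ighv8-9: acatactacTCTgctcgaagag
Ighv8-2: acatactacGGTgcttggagaga
Ighv8-8, Ighv8-12 and Ighv8-5 contribute 10 bases after that codon, and Ighv8-6 contributes 6. Over the 7 Ighv8 genes annotated as functional that have a cysteine codon there, the median was 10 bases (range 3 to 12), against a median of 6 bases over 100 other Ighv genes (range 5 to 14).

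CDR1 and CDR2, the germline-coded loops, show how alike the members are. The sequences below were read from deposited sequences equal to the named germline gene, and capitals mark bases that differ from Ighv8-8.
Ighv8-8 CDR1: gggttttcactgagcacttttggtatgggt
Ighv8-12 CDR1: gggttttcactgagcacttCtggtatgggt
Ighv8-5 CDR1: gggttttcactgagcacttCtAAtatgggt
Ighv8-6 CDR1: gggttttcactgagTacttttggtatgggt
Ighv8-8 CDR2: atttggtgggatgatgataag
Ighv8-12 CDR2: atttACtgggatgatgaCaag
Ighv8-5 CDR2: atttggtggAatgatgataag
Ighv8-6 CDR2: atttATtgggatgatgaCaag
Ighv8-8 and Ighv8-12 differed at 15 of 267 germline bases (94.4% identity), and Ighv8-8 and Ighv8-5 at 11 (95.9%). Ighv8-5 thus stands nearer to Ighv8-8 than Ighv8-12 does, and it carries 3 base changes in CDR1 and 1 in CDR2.

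The number of V mismatches in the deposited tables is counted against the authors' germline reference, and for 4 of the 6 called alleles its commonest value was above 0. Of the 86218 sequences called IGHV8-8, 75.4% had 0 mismatches, and of the 61223 called IGHV8-12, 78.9% did. Of the 14848 called IGHV8-5, only 0.0202% had 0 mismatches and the commonest number was 1. The deposited sequences were therefore compared with the GRCm38 genes as well, and 57.4% of the IGHV8-5 calls equalled the nearest GRCm38 gene. The 4097 sequences called IGHV8-6 carried a median of 43 deposited mismatches. Of them, 3801 (92.8%) were nearest to Ighv8-2 (chr12:114462291-114462730), and 90.6% of these equalled it exactly, while 260 (6.35%) were nearest to Ighv8-6. The IGHV8-6 calls thus hold mostly sequences that are nearest to another, more proximal member of the family. The 133 sequences called IGHV8-9 had 2 mismatches as the commonest number, and 90.2% equalled Ighv8-9. Of the 122 called IGHV8-11, 73.0% were nearest to Ighv8-5, 16.4% to Ighv8-2 and 9.84% to Ighv8-11. Only 3.28% equalled the gene they were nearest to, and of those nearest to Ighv8-5 0% did. Over the series, 20 of 117 V alleles with at least 100 spleen IgM sequences had a commonest number of mismatches above 0. For this reason the main results that rest on mutation are given also with mutations counted above the allele's commonest number, a setting chosen after the data had been seen.

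**Figure D1:**
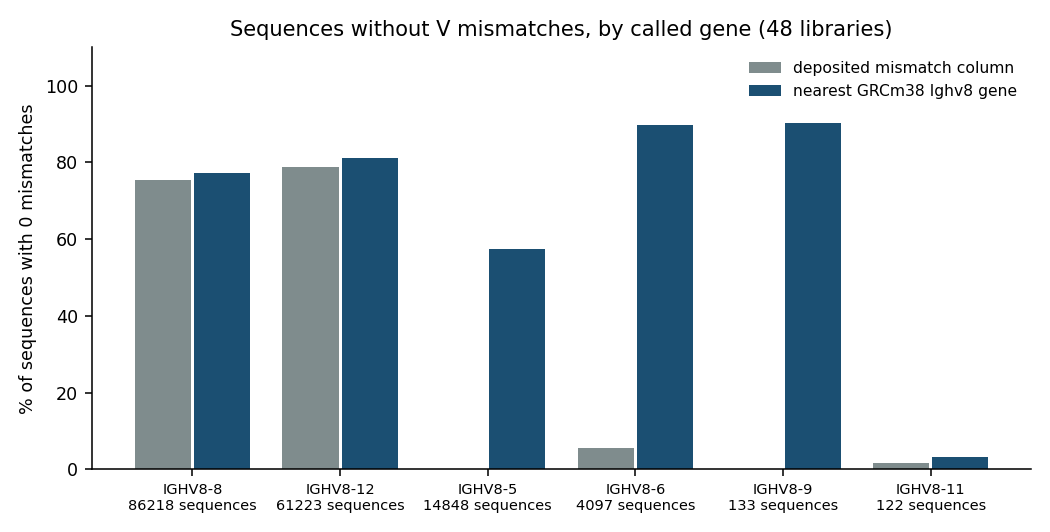
Share of deposited sequences (y axis, % of sequences) with 0 mismatches in the V segment for each called IGHV8 gene (x axis, with the number of sequences), by the deposited mismatch column (grey) and by comparison with the nearest GRCm38 Ighv8 gene (blue). IGHV8-8 and IGHV8-12 stand near 75.4% and 78.9% in the deposited column, whereas IGHV8-5, IGHV8-6 and IGHV8-9 are near the axis there and reach 57.4%, 89.8% and 90.2% against GRCm38.

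After the filter the LGs held 40105 to 264365 counts and 560 to 17213 clonotypes, and the spleens 71859 to 2032338 counts and 23002 to 593820 clonotypes. Most LG RNA was IgA (median 96.5% of counts), and most spleen RNA was IgM (median 70.6%). The LG of PBS-T mouse 5 stood apart with 17213 clonotypes, where the other LGs had at most 2504, and the LGs of NC mice 2 and 3 shared sequences. Among the LGs, 11 are marked as merged (6 NOD-FMT, 4 PBS-T, 1 NC) and no spleen table is. IGHV8 was read from 16 to 331 clonotypes per LG and 692 to 24183 per spleen, so that shares in single LGs carry a large counting error.

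In the spleen the family took up 3.60 ± 0.73% of clonotypes (SD, n = 24 mice), and 2 genes made up most of it. IGHV8-8 held 0.995% to 2.63% of the clonotypes of a spleen (median 1.92%, mean 1.88 ± 0.43%). IGHV8-12 held 0.865% to 1.98% (median 1.34%, mean 1.36 ± 0.28%). IGHV8-5 followed with 0.187% to 0.392% (median 0.246%, mean 0.252 ± 0.053%) and IGHV8-6 with 0.0241% to 0.145% (median 0.110%, mean 0.102 ± 0.030%). This order held in 24 of 24 spleens at each step (sign-flip permutation test of the within-mouse difference, adjusted p = 2.5e-05). The order tested, here and in the LG, was taken from the means of the same libraries. These p-values therefore describe how steady a step was between mice and are no independent check of the order. The other members were rare. IGHV8-9 was seen in 22 spleens at up to 0.0132% and IGHV8-11 in 18 spleens at up to 0.0136%, and these 2 did not differ beyond their spread (higher in 16 of 24 mice, adjusted p = 0.169).

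In the LG the family took up 3.31 ± 1.13% of clonotypes (n = 24 mice). IGHV8-8 ranged from 0.334% to 3.57% (median 1.39%) and IGHV8-12 from 0.299% to 2.24% (mean 1.26 ± 0.61%). Unlike in the spleen as a whole, IGHV8-8 was above IGHV8-12 in only 14 of 24 LGs, a difference within their spread (adjusted p = 0.267, permutation test). Among IgA clonotypes alone the 2 tissues had the same means. IGHV8-8 held 1.13% and IGHV8-12 1.25% of IgA clonotypes in the LG, and 1.13% and 1.25% in the spleen. IGHV8-5 was seen in 19 LGs at up to 3.17% (median 0.216%), below IGHV8-12 in 22 of 24 mice (adjusted p = 0.00094). IGHV8-6 was seen in 10 LGs and IGHV8-11 in 7, and these 2 did not differ beyond their spread (adjusted p = 0.660). IGHV8-9 was seen in 0 of 24 LGs, which allows a share of up to 0.0174% to 0.536% of clonotypes per LG by counting error alone.

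**Figure D2:**
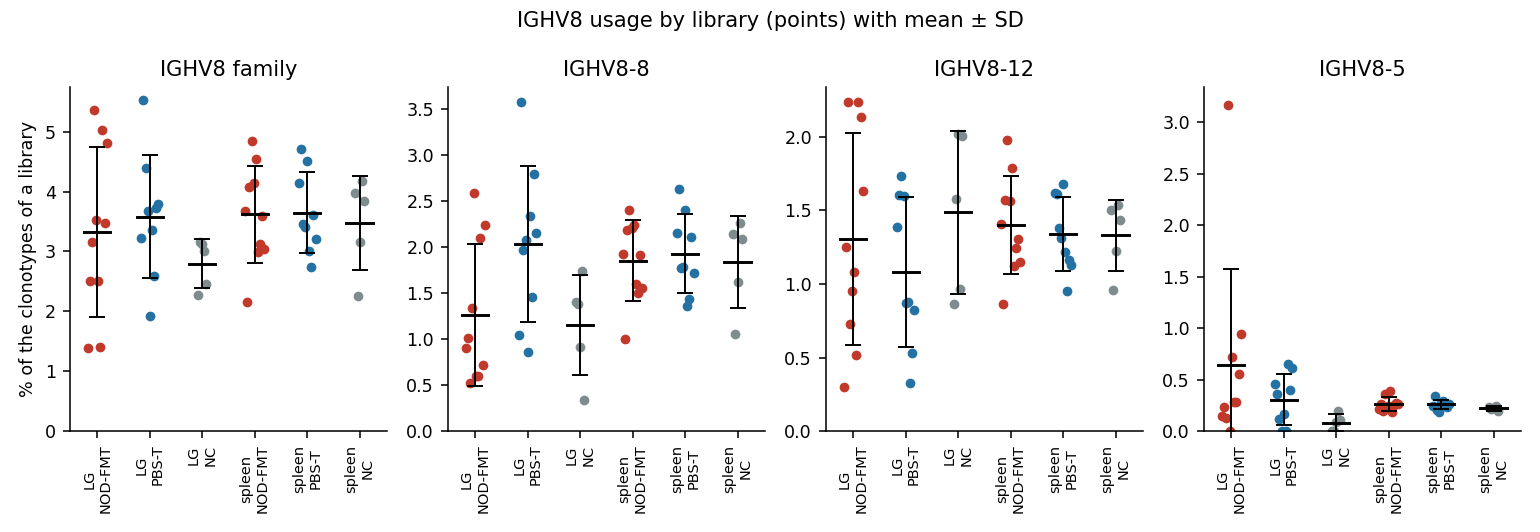
Share of clonotypes (y axes, % of the clonotypes of a library) that used the IGHV8 family, IGHV8-8, IGHV8-12 or IGHV8-5 in each library (points), by tissue and group, with the mean and SD as black bars. The groups overlap in every panel, the LG points spread more than the spleen points, and NOD-FMT mouse 4 stands alone at 3.17% for IGHV8-5 in the LG.

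Whether the microbiota transfer went with a change in IGHV8 usage was asked in each tissue. In the LG the family took up 1.40% to 5.36% of clonotypes in the NOD-FMT mice (median 3.32%, mean 3.32 ± 1.42%). In the PBS-T mice it took up 1.92% to 5.54% (median 3.67%, mean 3.58 ± 1.03%). The 5 NC mice had 2.27%, 3.15%, 3.12%, 3.00% and 2.45% (mean 2.80 ± 0.41%). The 3 groups overlapped, and the NC values lay inside the range of both other groups. NOD-FMT and PBS-T differed by -0.258 percentage points (exact permutation test, two-sided, p = 0.656; -0.485 to -0.0135 on leaving out 1 mouse), NOD-FMT and NC by 0.522 (p = 0.436) and PBS-T and NC by 0.780 (p = 0.132). The direction between NOD-FMT and PBS-T turned by share of counts (0.661), by unique sequences (0.212) and in LGs not marked as merged (0.0809). Without the LG of PBS-T mouse 5 the difference between PBS-T and NC was 0.987 (exact p = 0.0319 before adjustment).

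In the spleen the shares were 2.16% to 4.85% in NOD-FMT (mean 3.62 ± 0.81%), 2.73% to 4.71% in PBS-T (mean 3.64 ± 0.68%), and 3.98%, 2.25%, 3.16%, 4.18% and 3.84% in the 5 NC mice (mean 3.48 ± 0.79%). Again the groups overlapped over most of their range. The differences were -0.0256 percentage points between NOD-FMT and PBS-T (exact permutation test, p = 0.941), 0.135 between NOD-FMT and NC (p = 0.762) and 0.161 between PBS-T and NC (p = 0.691). The step from spleen to LG within a mouse did not differ detectably between groups either (exact p from 0.326 to 0.700 over the 3 pairs of groups).

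By gene, edgeR's quasi-likelihood test on clonotype numbers over all V genes called 11.6% of the 43 V genes tested in the LG between NOD-FMT and PBS-T, 6.98% as higher and 4.65% as lower in NOD-FMT. Only IGHV8-8 and IGHV8-12 passed the filter on low numbers there, and 0 of these 2 were called. IGHV8-8 was at 0.527% to 2.58% in NOD-FMT (median 0.956%) and 0.860% to 3.57% in PBS-T (median 2.08%), with a log2 fold change of -0.80 ± 0.34 (SE) and an adjusted p of 0.135 by edgeR. The NOD-FMT values lay lower on the whole than those of PBS-T, and the 2 ranges overlapped. The untreated NC mice were at 0.334% to 1.74% (median 1.38%, mean 1.16%). The means were 1.26% in NOD-FMT and 2.03% in PBS-T, so that NC stood nearer to NOD-FMT. The isotypes of the LGs differed as well, IgA making up 94.6% to 98.7% of counts in NOD-FMT, 13.9% to 97.1% in PBS-T (median 86.7%) and 88.6% to 97.8% in NC. IGHV8-8 held a mean of 2.15% of LG IgM and 1.13% of LG IgA clonotypes. Among IgA clonotypes alone it was at 0.573% to 2.47% in NOD-FMT (median 0.882%, mean 1.25 ± 0.75%) and 0.373% to 1.84% in PBS-T (median 1.15%, mean 1.14 ± 0.53%). There the median was lower in NOD-FMT than in PBS-T and the mean was not. The NC mice were at 0.380% to 1.52% of IgA clonotypes (median 0.738%, mean 0.860%). The part of the isotypes in the IGHV8-8 difference between NOD-FMT and PBS-T was not tested. IGHV8-12 had a log2 fold change of 0.14 ± 0.35 (adjusted p = 0.776). In the spleen the same test called 1% of 100 V genes, and 0 of the 4 IGHV8 genes that passed the filter (IGHV8-5, IGHV8-6, IGHV8-8 and IGHV8-12), whose log2 fold changes lay between -0.14 and 0.06. With counts after the shared-sequence filter in place of clonotypes, IGHV8-5 was higher in the NOD-FMT spleens (log2 fold change 0.96, adjusted p = 0.0432 by edgeR). That fit called 6.8% of 103 V genes, 3.88% as higher in NOD-FMT. Counts with shared sequences kept in were not tested in this way. IGHV8-5 held 0.272% to 1.94% of counts in those spleens (median 0.700%), against 0.142% to 0.600% in PBS-T (median 0.342%) and 0.222% to 0.644% in NC (median 0.377%). Counts rise both with more cells of a clone and with more immunoglobulin RNA per cell, and these cannot be told apart in bulk RNA.

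Between the tissues of a mouse the family share differed little. It was lower in the LG than in the spleen in 13 of 24 mice, with a mean difference of -0.291 ± 1.23 percentage points (SD, n = 24, permutation p = 0.260). Among IgA clonotypes alone the means were 2.90 ± 1.24% in the LG and 2.92 ± 0.85% in the spleen (p = 0.954). By gene, 34.1% of the 91 V genes tested were called between LG and spleen, 20.9% as lower and 13.2% as higher in the LG. Of the 4 IGHV8 genes tested, 1 was called, IGHV8-6 as lower in the LG. It had 0 clonotypes in 14 LGs and 1 to 5 in the other 10, against 10 to 698 per spleen, and so rested on the spleen for its numbers. The call was lost with DESeq2 and on leaving out single mice, and no difference is drawn from it. IGHV8-8 had a log2 fold change of -0.35 ± 0.17 (adjusted p = 0.107), IGHV8-12 of -0.14 ± 0.17 and IGHV8-5 of 0.27 ± 0.29. With counts after the shared-sequence filter in place of clonotypes all 3 directions turned, to 0.18, 0.54 and -1.79.

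The spleen was next divided by isotype and mutation. Among unmutated IgM clonotypes, counted as deposited, the family held 2.16% to 4.40% (mean 3.33 ± 0.58%, n = 24). Its share was higher in IgD, at 2.84% to 5.60% (mean 4.25 ± 0.84%), by 0.921 ± 0.478 percentage points and in 24 of 24 mice (permutation test, p = 1e-05, the smallest the resamples can give, adjusted p = 3.14e-05). Counted above the allele's commonest number of mismatches, unmutated IgM rose to 3.60 ± 0.58% and the step to IgD was 0.651 in 23 of 24 mice (p = 1e-05). Among unmutated IgM, mutated IgM, IgD, IgG and IgA of the spleen the family mean was highest in IgD with either count of mismatches. By share of counts the step to IgD was 0.630 percentage points (permutation p = 0.0601). A higher share in IgD was not particular to IGHV8. As deposited, the IGHV1 family went from a mean of 58.2% of unmutated IgM to 65.0% of IgD clonotypes. IGHV2 (6.22% to 5.35%), IGHV3 (4.45% to 4.23%) and IGHV5 (8.29% to 6.46%) were lower in IgD, and IGHV14 was level at 4.63%.

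In mutated IgM the direction depended on how mutations were counted. As deposited, the family share was higher than in unmutated IgM, 4.07 ± 1.54% against 3.33 ± 0.58%, in 17 of 24 mice (adjusted p = 0.00846). Above the allele's commonest number it was lower, 2.88 ± 1.32% against 3.60 ± 0.58%, and higher in only 5 of 24 mice (p = 0.00243). IGHV8-5 and IGHV8-6, whose germline sequences are entered as mutated in the deposited column, differed most between these counts. IGHV8-5 was at 1.51 ± 0.65% of mutated IgM clonotypes as deposited and at 0.424 ± 0.336% above its commonest number. IGHV8-6 was at 0.521 ± 0.224% and at 0.0324 ± 0.0213% in the same way. IGHV8-8 and IGHV8-12 had lower means in mutated than in unmutated IgM even as deposited. They stood at 1.22 ± 0.81% against 1.89 ± 0.36% and at 0.791 ± 0.269% against 1.44 ± 0.23%. The rise of the family as deposited thus came from members whose germline sequences are entered as mutated, and it is not used.

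In IgG the family held 3.67 ± 0.98% of clonotypes, which did not differ detectably from unmutated IgM (difference 0.335 ± 0.840 percentage points, higher in 16 of 24 mice, adjusted p = 0.117). That difference was 0.0650 above the allele's commonest number (13 of 24 mice, permutation p = 0.693). In IgA it held 2.92 ± 0.85%, lower by 0.415 ± 0.747 percentage points and higher in only 8 of 24 mice (adjusted p = 0.0286). Above the allele's commonest number the step to IgA was -0.685 (higher in 6 of 24 mice, p = 0.00012). Among clonotypes with at least 2 counts the family was higher in IgA than in unmutated IgM by 0.771 percentage points (p = 9e-05) and higher in IgG by 1.38 (p = 1e-05), which turns the direction for IgA.

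On class switching the members took different directions, as did V genes at large. In a fit of IgG plus IgA against unmutated IgM clonotypes, 78.7% of 89 V genes were called, 39.3% as higher and 39.3% as lower in IgG plus IgA, and 74.7% of 91 with mutations above the allele's commonest number. Of the IGHV8 genes, 3 passed the filter on low numbers as deposited and 2 of them were called, of which the call of IGHV8-5 is void. Above the commonest number 4 passed and 3 were called, of which the call of IGHV8-6 is void in the same way. With so few genes, these numbers do not stand apart from the share over all V genes. No trait of the family is drawn from them. IGHV8-8 fell by 0.41 ± 0.09 on the log2 scale as deposited (adjusted p = 0.000174 by edgeR) and by 0.36 ± 0.09 above the commonest number. With counts after the shared-sequence filter in place of clonotypes the first of these calls was lost (-0.40, adjusted p = 0.103 by edgeR). The fit by gene was not repeated among clonotypes with at least 2 counts, where the family direction turned for IgA. IGHV8-12 had -0.11 ± 0.07 (adjusted p = 0.131) and -0.06 ± 0.07, and with library totals without TMM scaling its deposited value was -0.15 (adjusted p = 0.0493 by edgeR). IGHV8-5 rose by 0.56 ± 0.15 above the commonest number (1.47-fold, adjusted p = 0.000809). As deposited it had only 1 unmutated IgM clonotype in the 24 spleens together, its commonest sequences being entered as mutated, so that its call there was fixed by the reference and is not used. IGHV8-6, whose calls are mostly Ighv8-2 sequences, was called lower above the commonest number. It had 2739 unmutated IgM clonotypes there against 74 of IgG and 40 of IgA over the 24 spleens and passed the filter through unmutated IgM alone, so that this call is not used either. The levels by compartment show the same order. IGHV8-8 went from 1.82 ± 0.35% of unmutated IgM clonotypes, above the commonest number, to 2.45 ± 0.47% of IgD, 1.72 ± 0.72% of IgG and 1.13 ± 0.45% of IgA. IGHV8-5 went from 0.281 ± 0.055% to 0.113 ± 0.032%, 0.452 ± 0.335% and 0.489 ± 0.383%. IGHV8-5 was therefore at its lowest level in IgD and IGHV8-8 at its highest.

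**Figure D3:**
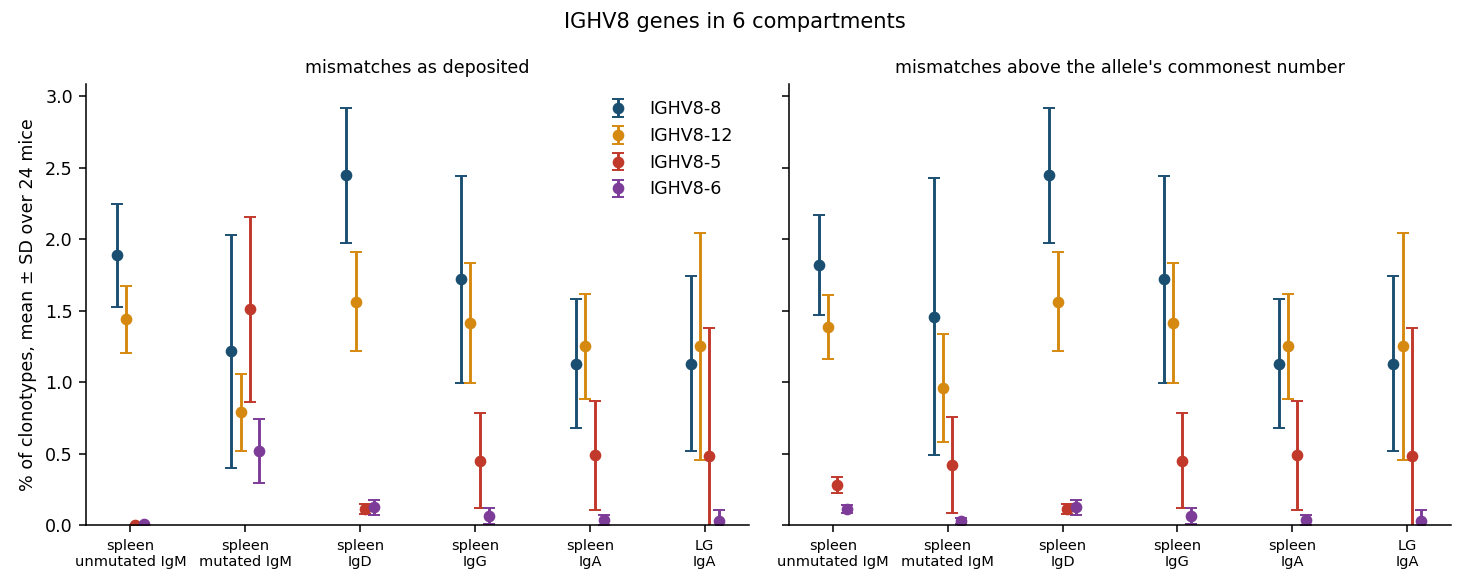
Mean share of clonotypes (y axis, %, error bars SD over 24 mice) of IGHV8-8, IGHV8-12, IGHV8-5 and IGHV8-6 in 6 compartments (x axis), with mutation counted as deposited (left) or above the allele's commonest number of mismatches (right). IGHV8-5 stands at 1.51% of mutated IgM on the left and 0.424% on the right, and IGHV8-8 is highest in IgD in both panels.

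The share of unmutated sequences within an isotype was compared between IGHV8 and the other V genes of the same spleen. In IgM it was 69.9 ± 10.8% for IGHV8 and 73.5 ± 7.2% for the others (adjusted p = 0.0518), in IgG 30.9 ± 10.4% and 29.1 ± 6.7% (adjusted p = 0.451), and in IgA 26.8 ± 8.9% and 20.9 ± 4.4% (higher in 20 of 24 mice, adjusted p = 0.00756). Above the allele's commonest number, switched IGHV8 sequences were unmutated more often than those of other V genes. The values were then 37.7 ± 10.7% against 30.1 ± 6.8% in IgG (21 of 24 mice, p = 6e-05) and 33.7 ± 9.8% against 21.5 ± 4.4% in IgA (21 of 24 mice, p = 1e-05, the smallest the permutations can give). In IgM they were 78.8 ± 11.6% and 76.1 ± 7.3% (p = 0.148).

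IGHV8 heavy chains carried a longer HCDR3 than the rest. Among unmutated IgM of the spleen the mean length per mouse was 12.8 ± 0.2 residues for IGHV8 and 11.4 ± 0.2 for all other V genes, a difference of 1.38 ± 0.11 residues that had the same sign in 24 of 24 mice (permutation p = 1e-05), and of 1.31 residues above the allele's commonest number. In the LG the means were 13.3 ± 0.7 and 11.6 ± 0.3 residues, a difference of 1.75 ± 0.83 in 23 of 24 mice (p = 1e-05). Over the 87 V genes with at least 1000 unmutated IgM clonotypes, IGHV8-8 ranked 2 and IGHV8-12 ranked 4 by mean length. Above the allele's commonest number, 1.07% of IGHV8 clonotypes had 7 or fewer residues against 8.47% of the others, and 5.83% against 2.62% had 17 or more. By gene the mean lengths were 12.9 ± 0.2 residues for IGHV8-8, 12.7 ± 0.2 for IGHV8-12, 12.2 ± 0.2 for IGHV8-5 and 12 ± 0.5 for IGHV8-6, all above the 11.4 residues of the other V genes. The IGHV8-6 calls are mostly Ighv8-2 sequences, in most of which the annotated HCDR3 starts a codon later, so their length is not counted like that of the other members. Among families, IGHV8 had 12.8 residues as deposited, against 11.5 for IGHV1, 11.8 for IGHV2, 11.6 for IGHV3, 11.8 for IGHV5 and 10.4 for IGHV14. Length did not differ detectably between the spleens of NOD-FMT (12.8 ± 0.2) and PBS-T mice (12.8 ± 0.2, exact permutation p = 0.689).

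J pairing was compared in the same way with all other V genes together, whose clonotypes are mostly IGHV1. IGHV8 clonotypes of unmutated splenic IgM used IGHJ1 in 19.4 ± 1.0% of cases against 15.4 ± 0.5% for other V genes (higher in 24 of 24 mice) and IGHJ4 in 29.4 ± 2.2% against 26.5 ± 1.2% (23 of 24). They used IGHJ2 in 31.0 ± 1.9% against 33.4 ± 1.0% (higher in 1 of 24) and IGHJ3 in 20.2 ± 1.3% against 24.7 ± 0.7% (0 of 24). Each of these 4 differences had a permutation p of 1e-05 and an adjusted p of 3.14e-05. Other families had similar or larger values for single J genes, as IGHJ1 made up 20.7% in IGHV3, IGHJ4 39.0% in IGHV2 and 29.2% in IGHV5, and IGHJ2 29.6% in IGHV5. The lowest IGHJ3 share of these 6 families was that of IGHV8, at 20.2% against 22.6% in IGHV3. Counted above the allele's commonest number, the IGHJ4 difference was smaller, 1.48 percentage points (higher in 21 of 24 mice, permutation p = 0.00014), and the others were 5.14 for IGHJ1, -2.91 for IGHJ2 and -3.71 for IGHJ3. IGHJ1 and IGHJ4 code for more residues of HCDR3 than IGHJ2 and IGHJ3, so length was compared within each J gene, with mutation as deposited. IGHV8 was longer by 1.03 ± 0.08 residues with IGHJ1, 1.53 ± 0.13 with IGHJ2, 1.46 ± 0.17 with IGHJ3 and 0.982 ± 0.160 with IGHJ4, in 24 of 24 mice each. The members differed in their J genes. IGHV8-5 used IGHJ1 in 35.9 ± 6.1% and IGHJ4 in 14.3 ± 3.5% of clonotypes above the commonest number, whereas IGHV8-12 used them in 21.3 ± 1.3% and 32.9 ± 2.4%, and IGHV8-8 in 17.9 ± 1.4% and 26.7 ± 2.3%. In the same count IGHJ3 made up 16.2 ± 1.1% in IGHV8-12 and 23.4 ± 2.0% in IGHV8-8. It made up 25.5 ± 5.7% in IGHV8-6 and 27.3 ± 5.4% in IGHV8-5, against 24.7 ± 0.7% in other V genes. The low IGHJ3 share of the family thus rested mainly on IGHV8-12 and was not shared by all members.

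**Figure D4:**
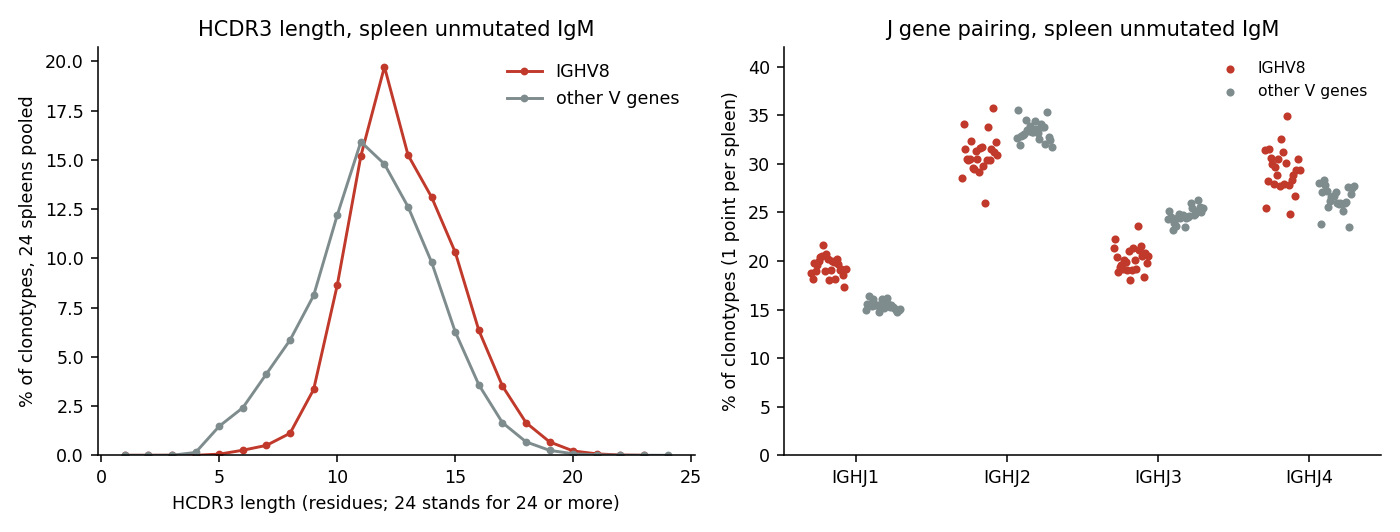
HCDR3 length (left, x axis in residues, y axis in % of clonotypes with the 24 spleens pooled) and J gene use (right, y axis in % of clonotypes, 1 point per spleen) of IGHV8 (red) and other V genes (grey) in unmutated IgM. The IGHV8 curve lies to the right of the other, with few clonotypes of 7 or fewer residues, and the IGHV8 points lie above the others for IGHJ1 and below them for IGHJ3.

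The largest IGHV8 clonotypes of the LG were each large in 1 mouse. In the LG of NOD-FMT mouse 8 an IGHV8-12/IGHJ2 clonotype held 3485 of 92606 counts, or 3.76% (95% Wilson interval 3.64% to 3.89%, counting error only), 98.7% of it IgA. In NOD-FMT mouse 10 an IGHV8-8/IGHJ1 clonotype held 3.05% of counts (2.97% to 3.14%), 89.2% of it IgA. In PBS-T mouse 7 an IGHV8-5/IGHJ2 clonotype held 2.50% (2.36% to 2.64%), all IgA. In NOD-FMT mouse 5 an IGHV8-8/IGHJ3 clonotype held 2.35% (2.27% to 2.44%), all IgA. In PBS-T mouse 3 an IGHV8-12/IGHJ1 clonotype held 2.12% (1.98% to 2.26%), all IgM. In its own spleen each of these stood at 0.00228% to 0.0602% of counts, so that none was large in both tissues. Their HCDR3 sequences follow in that order, with capitals for bases that come from neither the germline V nor the germline J segment.
ARRLRRGNYFDY: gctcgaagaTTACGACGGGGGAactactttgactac
ARPHYYGRNFDV: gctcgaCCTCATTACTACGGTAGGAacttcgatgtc
AQIDYYGSRGDY: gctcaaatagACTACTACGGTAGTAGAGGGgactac
ARIANYGSSYD: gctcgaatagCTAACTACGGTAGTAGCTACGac
ASDGYWYFDV: gctTCTGATGGTtactggtacttcgatgtc
The number of such bases ran from 9 in the last to 21 in the IGHV8-8/IGHJ3 clonotype. Over all 24 LGs the largest IGHV8 clonotype held 0.172% to 3.76% of counts.

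Sharing between mice was counted after the filter had taken out sequences found in 3 or more mice. Of 998 IGHV8 clonotypes in the LG, 4.91% were found in 2 or more mice against 6.04% of those of other V genes, and in the spleen 4.77% of 120440 against 6.10%. These differences were not tested. Clonotypes of the LG were found in the same mouse's spleen in 35.8 ± 17.7% of cases for IGHV8 and 33.1 ± 12.9% for other V genes (n = 24, permutation p = 0.326). No IGHV8 clonotype was found in more than 3 LGs. Of the 4 found in 3 LGs, the one with the most counts was an IGHV8-12/IGHJ1 clonotype with an HCDR3 of 16 residues, seen in 3 NC LGs and in 9 spleens. It held 1.13% of counts in the LG of NC mouse 3, whose library shares sequences with that of NC mouse 2. The others were an IGHV8-12/IGHJ1 clonotype in 3 PBS-T mice, and IGHV8-8/IGHJ3 and IGHV8-12/IGHJ4 clonotypes each in 1 PBS-T and 2 NC mice, all with at most 0.0175% of the counts of a library and found in 0 spleens.

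In the spleen 1 IGHV8 clonotype was found in 24 of 24 mice, IGHV8-5/IGHJ3 with the 8-residue HCDR3 AQMRGFAY. It is 1 of 7 clonotypes of any V gene seen in every spleen, out of 3154791. Its commonest HCDR3 sequence and those of the other clonotypes found in most spleens are shown to compare their junctions, with capitals as before.
AQMRGFAY: gctcaaatGAGGGggtttgcttac
ARIGTTVVAGDY: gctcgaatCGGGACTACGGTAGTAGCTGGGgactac
AQIASNYWYFDV: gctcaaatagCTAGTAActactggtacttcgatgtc
ARRADYYAMDY: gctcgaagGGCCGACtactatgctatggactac
In AQMRGFAY the germline V segment gives 8 bases and the germline J segment 11, which leaves 5 others. ARIGTTVVAGDY (IGHV8-8/IGHJ2, 14 spleens) has 22 others, AQIASNYWYFDV (IGHV8-5/IGHJ1, 14 spleens) 7, and ARRADYYAMDY (IGHV8-12/IGHJ4, 13 spleens) 7. The same AQMRGFAY HCDR3 was also called IGHV8-8 in 16 spleens, where it had a median of 6 deposited mismatches. It was called IGHV8-12 in 9 spleens (median 3 mismatches) and IGHV8-11 in 6 (median 11) as well.

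Most AQMRGFAY counts were IgG3, a subclass known from responses to polysaccharides and other antigens that need no T cell help. Its 2239 counts in the spleens came from 858 distinct sequences with 21 nucleotide versions of the HCDR3. Of these counts 74.1% were IgG3, 19.4% IgM, 4.15% IgG2C, 1.43% IgG2B, 0.849% IgA and 0% IgG1. The spleen of NOD-FMT mouse 3 alone gave 959 of the counts, and without it 68.0% of the remaining 1280 were IgG3. By spleen the IgG3 part ran from 14.3% to 97.4%, and it was under 50% in 4 spleens, those of PBS-T mice 4, 6 and 8 and NC mouse 1. It was found as IgG3 in 24 of 24 spleens, though in some on very few counts. There was 1 IgG3 count in PBS-T mouse 6, 2 in NC mouse 3 and 3 in PBS-T mouse 4, against 787 in NOD-FMT mouse 3. Of the 18683 IgG3 clonotypes of the spleens the next was in 13 mice, and the most widespread outside IGHV8 was in 8. In the LG it was seen in 1 library, with 2 counts. Its share of a spleen's IgG3 counts was 0.0951% to 2.25% in NOD-FMT (median 0.504%) and 0.0526% to 1.27% in PBS-T (median 0.196%). In the NC mice it was 1.22%, 5.42%, 0.0297%, 4.60% and 0.340%. The groups overlapped, and the mice of each group spread over more than 10-fold. Because the filter removes sequences found in 3 or more mice, it removes most of a clonotype that every mouse carries. Without the filter AQMRGFAY had 22606 counts, 83.5% of them IgG3, and 0.202% to 29.8% of the IgG3 counts of a spleen. How far carry-over between libraries adds to those unfiltered counts was not tested.

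**Figure D5:**
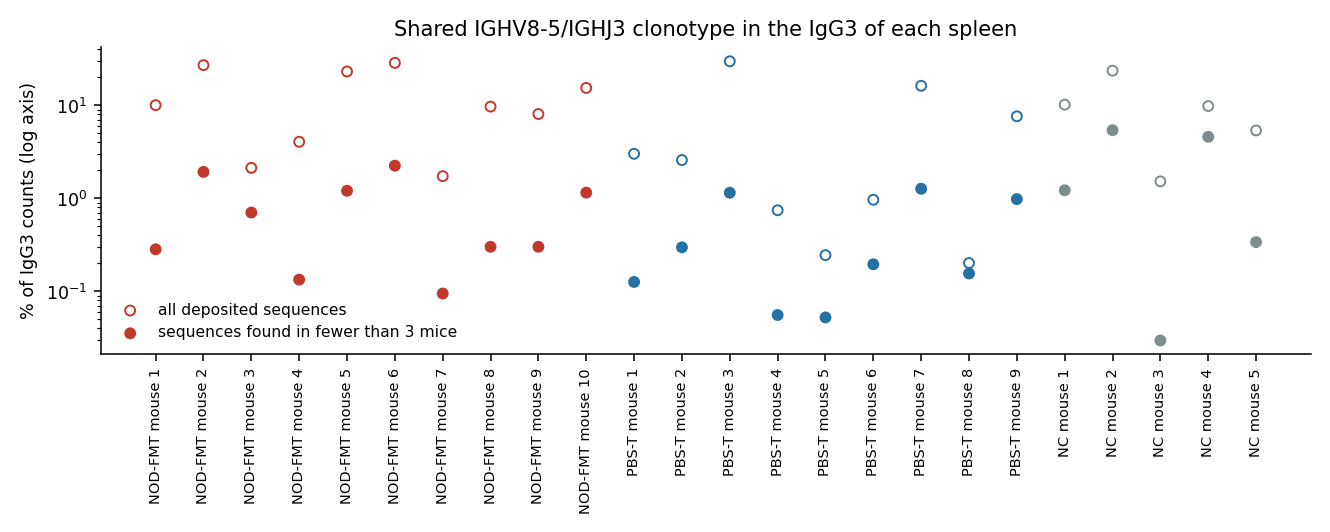
Share of IgG3 counts (y axis, %, log scale) held by the IGHV8-5/IGHJ3 clonotype AQMRGFAY in each spleen (x axis), for all deposited sequences (open circles) and for sequences found in fewer than 3 mice (filled circles), coloured by group. It is present in every spleen, between 0.0297% and 5.42% after the filter and between 0.202% and 29.8% without it.

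Lastly, the family's isotype profile was compared with that of 62 V genes that held at least 0.2% of clonotypes in every compartment. By the root mean square difference of log2 shares relative to unmutated IgM, over 5 compartments, the most alike were IGHV1-82 (0.186), IGHV1-36 (0.264), IGHV1-74 (0.267), IGHV1-7 (0.282) and IGHV1-42 (0.291), against a median of 0.571 over all 62. These names depend on how mutations are counted. With mutations above the allele's commonest number the family's mutated IgM share turned to -0.32 on that log2 scale, and the most alike of 64 V genes were IGHV1-26 (0.179), IGHV2-9-1 (0.219), IGHV3-6 (0.224), IGHV1-18 (0.226) and IGHV5-16 (0.228), against a median of 0.448. No gene stood among the 5 most alike in both. IGHV1 genes make up 40 of the 49 measured V genes that lie between the outermost IGHV8 genes. Of 44 such V genes tested between switched and unmutated IgM clonotypes, 22 were called higher and 14 lower, beside 35 and 35 of all 89, with a median log2 fold change of 0.12 against -0.01 over all V genes. Between LG and spleen 5 of 44 were called higher and 10 lower, beside 12 and 19 of all 91 (median -0.11 for these and for all V genes). Between NOD-FMT and PBS-T in the LG 3 of 23 were called higher and 0 lower, beside 3 and 2 of all 43 V genes. With counts after the shared-sequence filter 0 V genes were called there. In the spleen 1 of 47 was called higher, beside 1 of all 100, and that call was lost without PBS-T mouse 1, 2, 5 or 6.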

How the data were processed

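Heavy chain RNA of LG and spleen was amplified with V gene primers and a constant region primer carrying a unique molecular identifier. According to the methods, the authors merged the reads with PEAR, filtered them on quality, built a consensus per identifier without singletons, and annotated isotypes against IMGT and V(D)J segments with IgBLAST. Which release of the germline genes they used is not given in the sources used here. The deposited tables list each distinct sequence with its count of consensus reads (unit counts), its V and J call, HCDR3, isotype and the deposited count of V mismatches, which are not normalized. They also list a frequency, per the file headers the fraction that the count makes of its library total, which was not needed here. The labels name the build mm10.

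Identical nucleotide sequences that 3 mice or more shared within LG or within spleen were left out. This rule is worded after the study's methods, but it took out 9.83% of LG and 9.84% of spleen counts and left 2595348 and 10518641, so the data compared here are not the authors' own filtered set. The part taken out is far larger than the one described for the study's own step, above all in the LG, and the reason is not known. Mutations above the allele's commonest number, and IGHV8-8 among LG IgA alone, were added as alternatives after the data had been seen. Shares per library were compared over mice by two-sided permutation tests, exact between groups and with 100000 sign flips within the 24 mice. The 22 main family tests were adjusted together by Benjamini-Hochberg, and the tests on the order of genes as a separate set over both tissues. A p-value not called adjusted is unadjusted, as are all those above the allele's commonest number from permutations. Within-mouse tests pair libraries, or sequences of a library, by the mouse number in the labels. Numbers of clonotypes per V gene were tested over all V genes with edgeR 4.0.16 (TMM, filterByExpr, adjusted p below 0.05) and DESeq2 1.42.0 in R 4.3.3. The steps were tested on simulated data. Germline sequences are those of GRCm38, compared over at least 240 bases. Genes with at least 1% of IGHV8 clonotypes in the spleen were described in full, along with up to 5 clonotypes by largest LG share, by number of LGs and by number of spleens, and the 5 V genes most alike in profile. The members and lists were chosen with earlier results of these data known. The p-values set a difference against the variation between mice, the SDs give the spread, and intervals cover counting error only. The series' design text gives 10 PBS-T mice, and 9 with libraries were analysed here.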

Additional observations from a re-analysis of the deposited data

Results flagged for a closer look

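In 72 groups of 5 to 10 mice the highest and the lowest value were compared with the rest by their gap to the nearest other value, and 6 groups held a mouse far from the others. Chance alone gives about 1 in 20 groups. In the LG, NOD-FMT mouse 4 had 3.17% of its clonotypes in IGHV8-5, where the next NOD-FMT mouse had 0.947%. Its IGHV8-5 share of LG counts was 3.62%, and its spleen had 1.94% of counts in IGHV8-5. In the spleen, 2 mice had a short mean IGHV8 HCDR3 for their group. NOD-FMT mouse 2 had 12.2 residues, where the next lowest had 12.7, and NC mouse 2 had 12.3, where the next lowest had 12.8. PBS-T mouse 6 had the largest excess of IGHV8 over other V genes in HCDR3 length in its group, 1.78 residues against 1.49 in the next mouse. NC mouse 4 had the smallest IGHJ1 excess of its group, 2.39 percentage points against 3.84, and NC mouse 2 the lowest IGHJ3 difference, -7.87 percentage points against -5.20. The length, IGHJ1 and IGHJ3 differences had the same sign in 24 of 24 mice. The causes were not tested.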

How the results depend on the processing

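Of the family results recomputed under alternatives other than leaving out a mouse, 170 kept their direction and side of p = 0.05 (unadjusted), 16 reversed, 6 passed it newly and 20 no longer passed it. Differences are in percentage points of the first minus the second named, or residues for length, and the causes were not tested.

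Without the contamination filter, IgG minus unmutated IgM was 0.367 (p = 0.0430) and the unmutated share of IgG in IGHV8 minus other V genes -0.889. With sequences shared by 2 mice left out too, LG PBS-T minus NC was 1.05 (exact p = 0.0445) and IgA LG minus spleen 0.0049. With at least 2 counts per clonotype, LG minus spleen was 0.123, IgG minus unmutated IgM 1.38, IgA minus unmutated IgM 0.771 and the unmutated IgG difference -0.253. With clonotypes by HCDR3 nucleotides, IgG minus unmutated IgM was 0.386 (p = 0.0438). By share of counts, NOD-FMT minus PBS-T was 0.661 in the LG and 0.0538 in the spleen, IgA LG minus spleen 0.0975 and IgD minus unmutated IgM 0.630. By unique sequences, NOD-FMT minus PBS-T in the LG was 0.212 and IgA LG minus spleen 0.186. Above the allele's commonest number, mutated minus unmutated IgM was -0.719, and the unmutated differences were 2.76 in IgM and 7.60 in IgG. In LGs not marked as merged, NOD-FMT minus PBS-T was 0.0809. No call lists more than 1 V gene, so leaving out such calls gave no value.

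By group, IgA LG minus spleen was 0.366 in NOD-FMT and 0.104 in NC. Mutated minus unmutated IgM was 0.640 in NOD-FMT, 0.973 in PBS-T and 0.492 in NC, none past the threshold. IgG minus unmutated IgM was 0.706 in PBS-T (exact p = 0.0391), and IgA minus unmutated IgM was -0.377, -0.227 and -0.829 in NOD-FMT, PBS-T and NC. The unmutated IgM difference was -4.69 in PBS-T and -1.06 in NC, and that of IgA 5.48 and 4.96. With 5 NC mice no exact p can go below 0.0625, and there IgD minus unmutated IgM was 0.870, the HCDR3 length difference 1.32 in the spleen and 2.28 in the LG, and the IGHJ1 to IGHJ4 differences 3.70, -0.529, -5.48 and 2.31.

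The deviations of same-numbered mice of different groups had r above 0.1 in 2 of 9 NOD-FMT and PBS-T pairs in each tissue, in 0 of 5 (LG) and 3 of 5 (spleen) NOD-FMT and NC pairs, and in 2 of 5 PBS-T and NC pairs in each tissue. As this was not so for every pair, numbers were not taken to pair the mice. With the replicate number as a block, NOD-FMT minus PBS-T in the spleen was 0.0376 and the IGHV8-5 log2 fold change there -0.0012. Without the pairing by mouse, IgA minus unmutated IgM stayed at -0.415 (p = 0.0544) and the unmutated IgM difference at -3.59 (p = 0.185).

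Between NOD-FMT and PBS-T, edgeR on counts after the contamination filter called 0 V genes in the LG and 7 in the spleen. In the LG 13 had an unadjusted p under 0.05, and DESeq2 on clonotypes called 6. In the spleen DESeq2 called 2, and clonotypes without the contamination filter gave 2. With no filter on low numbers 73 V genes were called between LG and spleen. By counts, log2 fold changes turned to 0.35 for IGHV8-6 in the spleen, and between LG and spleen to 0.54 for IGHV8-12, -1.79 for IGHV8-5 and 0.18 for IGHV8-8.

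Leaving out 1 mouse at a time, NOD-FMT minus PBS-T ranged from -0.485 to -0.0135 in the LG and -0.163 to 0.136 in the spleen, NOD-FMT minus NC from 0.295 to 0.736 and -0.172 to 0.309, and PBS-T minus NC from 0.536 to 0.987 (past the threshold without PBS-T mouse 5) and -0.147 to 0.334. LG minus spleen ranged from -0.387 to -0.191 and for IgA from -0.113 to 0.0809. Against unmutated IgM, mutated IgM ranged from 0.596 to 0.808, IgD from 0.879 to 0.954, IgG from 0.264 to 0.411 (past the threshold without NOD-FMT mouse 3 or 7, PBS-T mouse 4 or NC mouse 4) and IgA from -0.468 to -0.354. Length ranged from 1.37 to 1.39 in the spleen, 1.69 to 1.84 in the LG and -0.0745 to 0.0220 between NOD-FMT and PBS-T. IGHJ1 ranged from 3.92 to 4.08, IGHJ2 from -2.50 to -2.20, IGHJ3 from -4.63 to -4.37 and IGHJ4 from 2.61 to 3.06. The unmutated differences ranged from -4.18 to -2.61 in IgM (p = 0.0516 without PBS-T mouse 8), 0.901 to 2.22 in IgG and 5.16 to 6.82 in IgA. V genes called numbered 2 to 7 in the LG (3 without NOD-FMT mouse 7, 2 without NOD-FMT mouse 9), 0 to 2 in the spleen (0 without PBS-T mouse 1, 2, 5 or 6, and 2 without NOD-FMT mouse 4 or 8 or PBS-T mouse 4), 26 to 34 between tissues and 64 to 72 on switching. Log2 fold changes between NOD-FMT and PBS-T ranged from -0.054 to 0.30 for IGHV8-12 in the LG, and in the spleen from -0.0049 to 0.13 for IGHV8-12, -0.040 to 0.089 for IGHV8-5 and -0.11 to 0.019 for IGHV8-8. Between LG and spleen IGHV8-8 was called without NOD-FMT mouse 8 or 10 or PBS-T mouse 6 or 9, at -0.45 to -0.24 over all 24 omissions.

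An LG holds 16 to 331 IGHV8 clonotypes. In LG data simulated for NOD-FMT against PBS-T over 45 V genes, edgeR recovered 8 of 10 genes changed 2-fold and 6 of 10 changed 4-fold, with 0 false calls. In simulated spleen data over 101 V genes it recovered 10 of 10 at each fold with 1 false call in all, and the measured spleens gave 1 call. The simulated spread was set to the same fixed value in both tissues and not estimated from these libraries. The recovery therefore does not give the power reached in the measured data.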

Other observations

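Among the IgG subclasses IGHV8-5 had its highest share in IgG3, which was noticed after the values had been seen and is given as a description without a test. Over the 24 spleens IGHV8-5 held 1.72 ± 1.81% of IgG3 clonotypes, against 0.344 ± 0.558% of IgG1, 0.286 ± 0.153% of IgG2B and 0.462 ± 0.458% of IgG2C clonotypes. IGHV8-8 held 1.69 ± 0.90% and IGHV8-12 1.10 ± 0.44% of IgG3 clonotypes, against 1.69% to 1.87% and 1.30% to 1.57% of those of the other IgG subclasses. By mean share, the rare members were highest in IgG3 as well, on few clonotypes. IGHV8-6 was at 0.110% against 0.0446% to 0.0688%, from 18 IgG3 clonotypes in all. Its IgG3 share had a median of 0% and reached 1.07% in the highest spleen, against a median of 0.0485% in IgG2B. No IgG3 excess of IGHV8-6 is drawn from this. IGHV8-11, whose calls are mostly nearest to Ighv8-5, was at 0.0421% against 0.00483% to 0.00800%, from 9. Its IgG3 share had a median of 0% and reached 0.324% in the highest spleen. The HCDR3 AQMRGFAY was called IGHV8-11 in 6 spleens, and its part in these clonotypes was not tested. No IgG3 excess of IGHV8-11 is drawn from this either. In the NOD-FMT spleens IGHV8-5 took up 0.785% to 6.81% of IgG3 clonotypes (median 2.53%), in the PBS-T spleens 0.243% to 1.64% (median 0.680%), and in the NC spleens 0.456%, 0.746%, 0.926%, 0.615% and 0.923%. These shares rest on 8 to 44 IGHV8-5 clonotypes per NOD-FMT spleen, 1 to 8 per PBS-T spleen and 1 to 5 per NC spleen, and the ranges of NOD-FMT and PBS-T overlap.

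By IgG3 counts, IGHV8-5 held 1.00% to 22.3% in NOD-FMT, 0.0658% to 2.47% in PBS-T and 0.193% to 5.42% in NC. With shared sequences kept in, NOD-FMT spleens had 2.63% to 40.5% of IgG3 counts in IGHV8-5 (median 18.1%). The PBS-T spleens then had from 0.259% up to 34.6% (median 3.06%), and NC spleens between 1.69% and 23.7% (median 9.91%), so that the ranges overlapped widely. By IgG3 clonotypes, keeping shared sequences gave 0.814% to 6.92% in NOD-FMT, at most 1.78% in PBS-T and at most 1.07% in NC. Its largest IgG3 clonotype was AQMRGFAY in 15 of 24 spleens. In NOD-FMT mouse 2 it was AQMRAFAY with 18.4% of the IgG3 counts, and in NOD-FMT mouse 4 AQMRFFAY with 18.7%, both with IGHJ3 and both 1 residue away from AQMRGFAY. IGHV8-5 IgG3 clonotypes identical to AQMRGFAY or within 1 residue of it numbered 3 to 7 per NOD-FMT spleen, 1 to 5 per PBS-T spleen and 1 to 3 per NC spleen. They were 6.82% to 62.5% of the IGHV8-5 IgG3 clonotypes of a NOD-FMT spleen and 28.6% to 100% of those of a PBS-T spleen.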
